A study of Emiliania huxleyi with 18 samples.

Results

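In ageing cultures of the coccolithophore Emiliania huxleyi, 41 genes passed from near absence on day 7 to clear expression on day 13. They were chosen on raw counts of unique molecular identifiers (UMIs, tags that let each captured transcript be counted once). A gene was taken if it had at most 10 UMIs over the 3 control libraries of day 7 and at least 60 UMIs over the 3 control libraries of day 13. Of 41734 genes in the count matrix, 41 met both limits. The choice fixes a low control level on day 7 and a high control level on day 13, so those 2 groups are described here without a test. The libraries of UV cultures and of control day 10 took no part in the choice.

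The cultures were axenic E. huxleyi strain CCMP3266, grown in 50 ml standing flasks of silicate-free L1 medium at 18 °C with 16 h of growth light and 8 h of dark. In UV cultures a UV lamp was added during 14 h of each day. Its output was given as UV-A at 0.5, UV-B at 0.07 and UV-C at 0.026, all in W per square metre. Control cultures had growth light alone. The groups were UV day 7, control day 7, UV day 10, control day 10, UV day 13 and control day 13, each with 3 libraries. Nothing in the labels ties a flask of one day to a flask of another. The p-values judge differences against the spread between libraries of a group, estimated over all 18 libraries in 1 fit.

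E. huxleyi is a unicellular calcifying alga of the open ocean. As a closed batch culture ages, cells become dense, dissolved nutrients are drawn down and growth slows, and microalgae are known to change the transcription of many genes along the way. The growth phase at each harvest is not given in the labels. The authors' identifiers were not paired with gene names or functions, 0 of them matched the reference gene table, and no gene can be given a role here. In bulk RNA a change in level per cell and a change in the fraction of cells that express a gene cannot be told apart.

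UMI totals ranged from 1060640 to 9216603 per library. Replicates 1 and 2 of both arms on day 10 were shallow, with 1124600 to 1699470 UMIs, and had 0.870 to 0.876 UMIs per read against at most 0.795 elsewhere, so day 10 results are also given within these libraries and within replicate 3. UV day 7 replicate 1 was the shallowest library. It held UMIs of 9 of the 41 genes, against 31 and 39 in the other two libraries of that group. Levels are given as CPM, UMI counts scaled to library totals that were adjusted with edgeR's TMM factors. They are not per length and are compared within a gene.

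Most of the 41 genes were low rather than silent on day 7. In UV day 7, which the choice did not use, 40 of them had at least 1 UMI, the median gene had 7 UMIs over the 3 libraries, and 7 genes exceeded the 10 UMIs that limited control day 7. In control day 7 the counts were 1 to 10, with a median of 6. Every UV day 7 library was above every control day 7 library for 1 of the 41 genes and below for 1, against 6.14% and 12.8% of all 18196 genes tested. The expression "switched on" therefore describes the choice, and most of the genes had a low level before it. At the limits, 7 genes had exactly 10 UMIs in control day 7, and 7 others with at least 60 UMIs on day 13 were left out with 11. The lowest day 13 count among the 41 genes was 61 UMIs, and the highest just outside was 59. All 41 genes had every control day 13 library above every control day 7 library, as had 34.2% of all genes tested (29.3% had every library below), and nothing is read from that count since the choice used both groups. The day 13 counts were small for most, with a median of 86 UMIs over 3 libraries and 29 genes under 100.

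The summed level of the 41 genes increased with each harvest in both arms. In UV cultures it was 16.9 ± 5.14 CPM on day 7, 46.4 ± 1.40 CPM on day 10 and 306 ± 51.2 CPM on day 13 (SD, n = 3 each). In control cultures it was 14.2 ± 1.57, 47.3 ± 6.46 and 411 ± 21.7 CPM on the same days (SD, n = 3 each). The genes G17529 and G8314 made up much of the day 13 sum. Without both, the other 39 genes summed to 42.6 ± 1.23 CPM in UV day 10 against 47.2 ± 6.51 CPM in control day 10, and to 189 ± 15.2 CPM in UV day 13 against 222 ± 31.3 CPM in control day 13 (SD, n = 3 each).

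**Figure D1:**
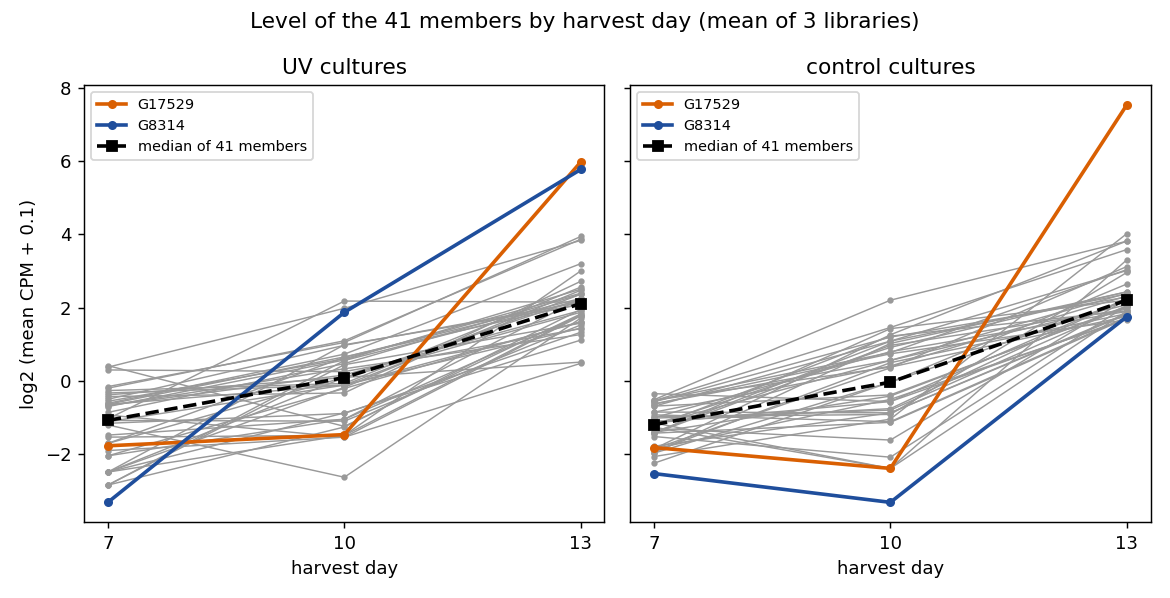
Mean level of each of the 41 genes over 3 libraries, as log2 (CPM + 0.1), against harvest day in UV (left) and control cultures (right), with the median in black. Most lines climb from day 7 to day 10 and more steeply to day 13. G17529 stays at the bottom until day 10 in both arms, while G8314 is already up on day 10 in UV cultures, where control cultures had 0 UMIs.

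The increase was tested in the UV arm. Between UV day 13 and UV day 7 all 41 genes rose (edgeR's quasi-likelihood test, adjusted p under 0.05 over 18196 genes), where 27.6% of all genes tested were called higher and 25.9% lower. All 41 genes had passed the low-count filter, for which the high control day 13 counts were enough. With only the libraries of these 2 groups the filter kept 33 of the 41 genes, and all 33 were called higher. In the fit over all 18 libraries, the largest edgeR adjusted p among the 41 genes was 0.0230. The median log2 fold change was 3.17, against 0.05 over all genes tested, and 40 of the 41 genes had every UV day 13 library above every UV day 7 library, which held for 30.1% of all genes tested. None of the 41 had every UV day 13 library below, a pattern of 27.3% of all genes tested. The exception was G10662. It had 14, 13 and 17 UMIs in UV day 13 against 3, 0 and 6 in UV day 7, and its 3 UMIs in the shallow replicate 1 of day 7 correspond to 3.00 CPM.

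Most of that increase came after day 10. Between UV day 13 and UV day 10, 32 of 41 genes rose, against 9.18% of all genes tested, with a median log2 fold change of 2.05. None fell by edgeR, limma-voom or DESeq2, and by edgeR none was lower even at an unadjusted p under 0.05. Of all genes tested, 10.8% were called lower. Between UV day 10 and UV day 7, 9 of 41 genes rose and none fell by any of the 3 tools, with no fall at an unadjusted p under 0.05 by edgeR. This share is close to the 18.2% of all genes tested that were called higher (19.8% were called lower). The median log2 fold change was 0.89, and 36 of the 41 fitted changes were positive. In total 8 genes passed both steps, 24 passed only the later step and 1 passed only the earlier step. The other 8 passed neither step although they rose from day 7 to day 13. With only the libraries of the 2 groups compared, the low-count filter kept 1 of the 41 genes for the earlier step, which was called higher. For the later step it kept 23, of which 21 were called higher. The median gene had 7 UMIs over the 3 libraries of UV day 7 and 9 over those of UV day 10. A lack of calls in the earlier step therefore does not show that a gene was unchanged by day 10. With only the deep replicate 3 of day 10 the later step gave 21 genes and the earlier step 7. With only the shallow replicates they gave 22 and 6.

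**Figure D2:**
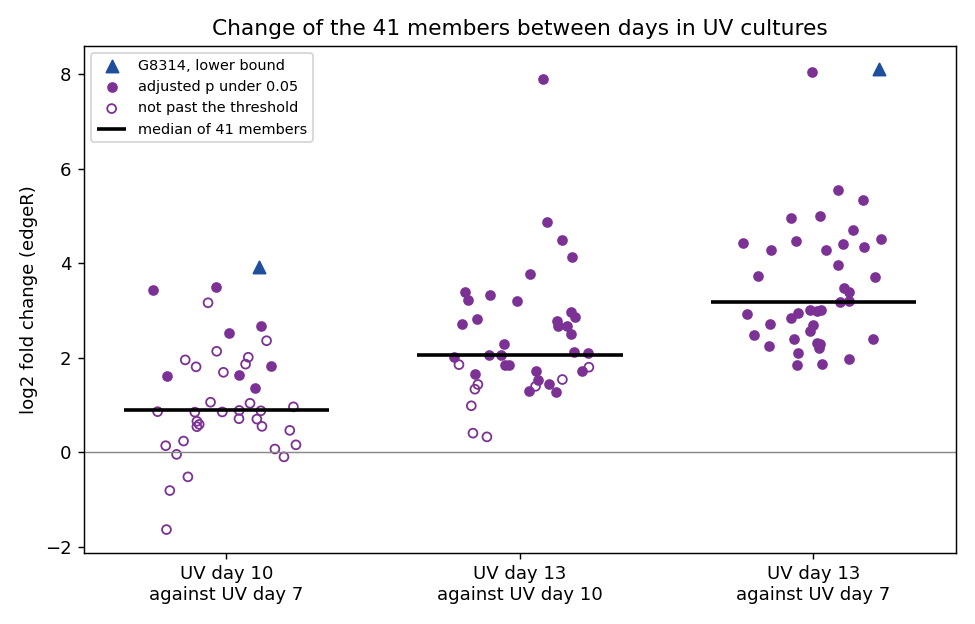
Log2 fold change of each of the 41 genes between days in UV cultures, with filled points past the adjusted p threshold of 0.05 (edgeR) and bars at the median. G8314 had 0 UMIs in UV day 7 and is drawn as a triangle at its lower bound. The medians are 0.89 for day 10 against day 7, 2.05 for day 13 against day 10 and 3.17 for day 13 against day 7.

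The onset on day 10 was expressed for each gene as its day 10 level in percent of its day 13 level. The median was 20.9% in UV cultures (quartiles 11.5% and 30.3%) and 18.2% in control cultures (quartiles 11.2% and 33.6%). Over all genes tested the same median was 99.5% in UV and 96.9% in control cultures. In UV cultures 9 genes stood under 10%, 29 from 10% to under 50%, 2 from 50% to under 100% and 1 at 102%. In control cultures the counts were 8, 30, 3 and 0. The share was higher in UV than in control cultures for 20 genes and lower for 21, and 29 genes fell in the same range in both arms. The control share uses the day 13 libraries of the choice, so it is a description.

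**Figure D3:**
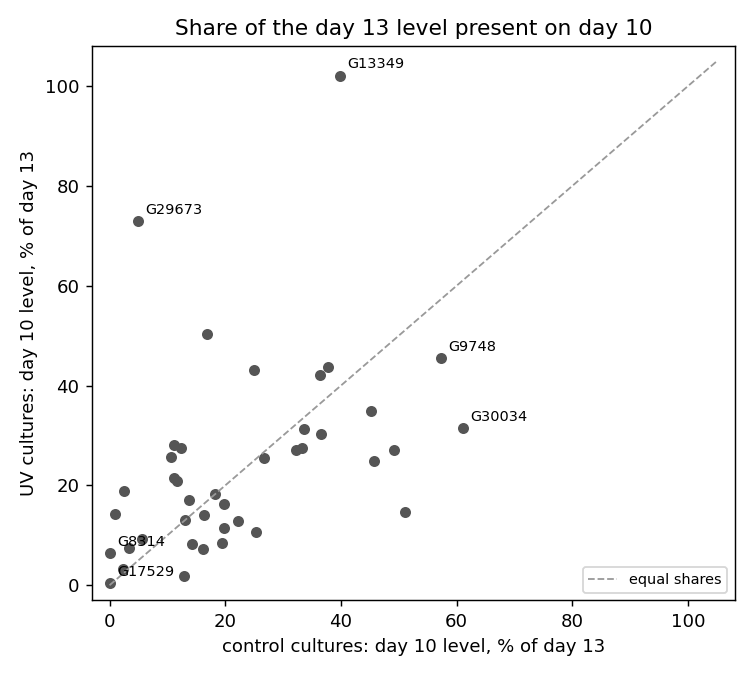
Day 10 level in percent of the day 13 level for each of the 41 genes, UV cultures on the vertical and control cultures on the horizontal axis, with the line of equal shares. Most points lie under 50% on both axes. G13349 reached 102% in UV cultures, and G30034 and G9748 had the highest control shares.

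In 5 genes the day 10 share was under 10% in both arms. Among them G8314 had the lowest share in control cultures, at 0%, and G17529 the lowest in UV cultures, at 0.415%. G17529 had 0, 3 and 0 UMIs in the 3 UV day 7 libraries against 1, 1 and 1 in control day 7. On day 10 it had 0, 1 and 1 UMIs in UV against 0, 0 and 2 in control cultures. On day 13 it had 316, 47 and 383 UMIs in UV against 1110, 1145 and 1263 in control cultures. The gene was thus at 3 UMIs or fewer per library until day 10 in both arms, and on day 13 all libraries but UV replicate 2 had at least 316.

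In control cultures the pooled ratio of G17529 for day 13 over day 10 was 927-fold. It was at least 163-fold without control day 10 replicate 3, which held both day 10 UMIs. Control day 13 was chosen for being high, so these control ratios are a description. In UV cultures the ratio of day 13 over day 10 was 248-fold (95% exact interval 68.4 to 2053), a rise with an edgeR adjusted p of 0.00152. That ratio lay between 175-fold and 403-fold when any 1 of the 6 libraries was left out. The lowest value came without UV day 13 replicate 3 and the highest without UV day 10 replicate 2. Without UV day 13 replicate 2 the ratio was 400-fold, and without UV day 10 replicate 3 it was 189-fold. For UV day 13 over UV day 7 it was 277-fold (95% exact interval 94.5 to 1347, edgeR adjusted p 0.000153). The intervals cover counting error only. All 3 UMIs of UV day 7 lay in replicate 2, and without that library the rise was at least 180-fold against a floor of 3 UMIs over the group. Without UV day 7 replicate 3 it was 116-fold, and without UV day 13 replicate 2 it was 447-fold. Against UV day 10 the adjusted p rose to 0.0606 with only the deep day 10 libraries and to 0.0979 with only the 6 libraries of the 2 groups.

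On day 13 G17529 stood at 86.9, 8.44 and 93.4 CPM in UV cultures against 194, 194 and 169 CPM in control cultures. Every UV library was below every control library, and UV replicate 2 was far below the other two of its group. The UV mean was 62.9 ± 47.3 CPM and the control mean 186 ± 14.2 CPM (SD, n = 3 each). The pooled ratio of UV to control was 0.304, and 0.490 without UV replicate 2. Control day 13 was chosen for being high, so no test is given.

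G17840 followed a similar course. It had 1, 0 and 1 UMIs in UV day 10 against 1, 0 and 2 in control day 10, and 45, 13 and 37 in UV day 13 against 87, 88 and 136 in control day 13. In UV cultures the rise from day 10 had a pooled ratio of 31.6 (95% exact interval 8.51 to 265) and an edgeR adjusted p of 3.91e-05. The ratio lay between 22.9, without UV day 13 replicate 1, and 51.0, without UV day 10 replicate 1, when any 1 library was left out. The day 13 levels were 12.4, 2.33 and 9.02 CPM in UV cultures against 15.2, 14.9 and 18.2 CPM in control cultures, again without overlap and again lowest in UV replicate 2.

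UV day 13 replicate 2 was also low for G13861, with 7.97, 1.80 and 6.59 CPM in UV against 7.51, 11.4 and 10.5 CPM in control cultures, where the groups overlapped. Relative to the mean of replicates 1 and 3, replicate 2 stood at 0.0936 for G17529, 0.218 for G17840 and 0.247 for G13861. The same ratio had a median of 1.04 over the 41 genes and was under 0.5 for 5 of them, the other 2 being G4444 and G35366. It was not counted over all genes tested. In UV day 13 replicate 2, G13861, G4444 and G35366 had only 10, 7 and 13 UMIs. G13861, G4444 and G35366 were singled out after their values were seen.

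**Figure D4:**
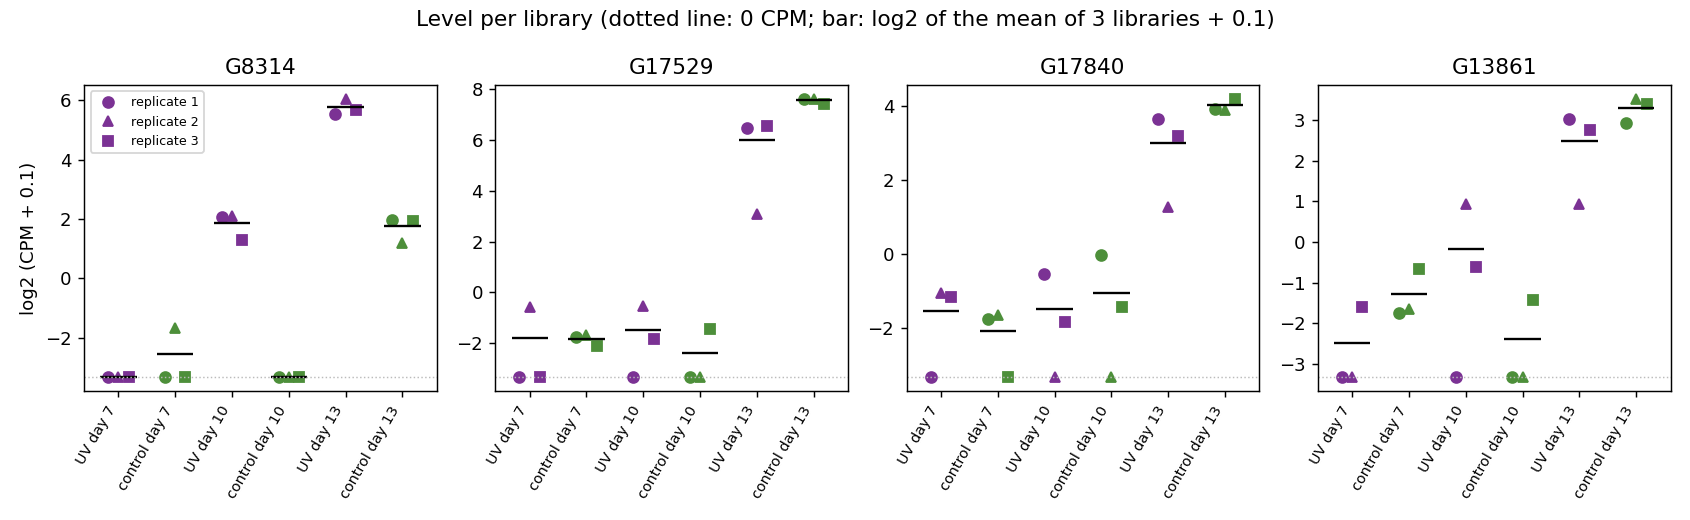
Level per library, as log2 (CPM + 0.1), of G8314, G17529, G17840 and G13861 in the 6 groups, UV in purple left of control in green on each day. Marker shapes give the replicate, bars the group mean and the dotted line 0 CPM. All 4 genes have their highest mean of each arm on day 13. G8314 in UV day 10 is at the level of control day 13, and the other 3 genes have UV day 13 replicate 2 (triangle) well below its group.

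G8314 was the gene of the 41 that differed most between arms. It had 0 UMIs in every UV day 7 library against 0, 1 and 0 in control day 7. On day 10 it had 7, 7 and 13 UMIs in UV against 0, 0 and 0 in control cultures. On day 13 it had 169, 368 and 210 UMIs in UV against 22, 13 and 28 in control cultures. All UV libraries of day 10 and day 13 were above all control libraries of the same day.

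The day 10 difference of G8314 is independent of the choice. With a floor of 3 UMIs over the control group, it was at least 10.2-fold higher in UV day 10 than in control day 10 (edgeR adjusted p 0.000665). It was the only gene of the 41 that edgeR called between the arms on day 10, where 0.643% of all genes tested were called higher and 1.87% lower under UV. The call rested on the deep control library. Without control replicate 3 the bound was 2.70-fold and the edgeR adjusted p 0.0704. Within the shallow replicates the adjusted p was 0.0901. Within replicate 3, with 1 library per arm assumed to vary like the other groups, it was 0.0226. DESeq2 gave no adjusted p for this gene here, while the authors' deposited table lists it with a log2 fold change of 5.33 and an adjusted p of 0.00158.

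Within UV cultures G8314 was at least 15.1-fold higher on day 10 than on day 7 (edgeR adjusted p 1.35e-06) and 18.4-fold higher on day 13 than on day 10 over pooled UMIs (95% exact interval 12.5 to 28.1, edgeR adjusted p 7.26e-14). The interval covers counting error only. The 18.4-fold ratio became 13.55-fold without the deep UV day 10 replicate 3 (95% exact interval 8.02 to 24.9). With any other 1 library left out it lay between 16.1-fold and 20.2-fold. The bound for day 10 over day 7 was 6.32-fold without the deep UV day 7 replicate 3 and 9.78-fold without replicate 2. The corresponding bounds for day 13 over day 7 were 278-fold with all libraries, 116-fold without UV day 7 replicate 3 and 180-fold without replicate 2. In control cultures it was at least 11.1-fold higher on day 13 than on day 10, and at least 2.92-fold without control day 10 replicate 3. The day 13 level was 46.5, 66.1 and 51.2 CPM in UV cultures against 3.84, 2.20 and 3.76 CPM in control cultures, a pooled ratio of 17.0 that lay between 14.8 and 18.6 when any 1 of the 6 libraries was left out. UV day 10 already stood at 4.09, 4.20 and 2.38 CPM, which overlaps the control day 13 values.

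Other genes had a larger part of their day 13 level on day 10. G9748 had one of the 2 largest control day 10 shares, at 57.3%, and reached 45.5% in UV cultures. It stood at 0, 0 and 0.232 CPM in UV day 7, at 1.17, 3.00 and 1.46 CPM in UV day 10, and at 3.30, 4.67 and 4.39 CPM in UV day 13. In control cultures it stood at 0, 0 and 0.796 CPM, at 4.40, 1.32 and 2.03 CPM, and at 4.54, 4.41 and 4.56 CPM on the same days. The 4.40 CPM came from 5 UMIs in the shallow replicate 1. The pooled ratio of control day 13 over control day 10 was 2.06, and 2.36 without that library. Without the deep control day 10 replicate 3 it was 1.71 (95% exact interval 0.795 to 4.38). Control day 13 was chosen for being high, so these control ratios are a description. The rise from UV day 7 to UV day 10 had a pooled ratio of 12.6 over 15 and 2 UMIs (95% exact interval 2.92 to 113, edgeR adjusted p 0.00195). Both UMIs of UV day 7 lay in replicate 3, without which the rise was at least 3.51-fold, and without UV day 7 replicate 2 the ratio was 8.15. The later step of G9748 in UV cultures also passed, narrowly, with a log2 fold change of 1.27 ± 0.47 (SE, edgeR adjusted p 0.0497).

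G30034 had the highest control share, at 61.0%, which rested on 1 shallow library. It stood at 0.584, 0.600 and 1.28 CPM in UV day 10 against 4.40, 0.659 and 1.62 CPM in control day 10, where replicate 1 had 5 UMIs. Its UV share was 31.4%. In UV cultures neither step passed the threshold, while day 13 was above day 7 by 2.10 ± 0.52 (SE) on the log2 scale (edgeR adjusted p 0.000821).

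G13349 was the single gene that passed the earlier step and not the later one, and is named for that after its values were seen. It stood at 0, 0.576 and 0.580 CPM in UV day 7, at 5.26, 6.00 and 2.01 CPM in UV day 10 and at 3.30, 6.29 and 3.41 CPM in UV day 13. The log2 fold change was 2.68 ± 0.60 (SE) for UV day 10 over UV day 7 (edgeR adjusted p 0.000447) and 0.33 ± 0.41 for UV day 13 over UV day 10 (edgeR adjusted p 0.644). In control cultures it stood at 1.76, 1.32 and 2.97 CPM on day 10 and at 3.84, 6.28 and 5.10 CPM on day 13, which do not overlap.

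G27382 and G18662 had the most UMIs in UV day 7. G27382 had 1, 8 and 9 UMIs in UV day 7 against 2, 4 and 4 in control day 7, which sum to the upper limit of the choice in control cultures. Its level was higher at each harvest in both arms, with 1.19 ± 0.297, 3.84 ± 0.246 and 14.2 ± 3.43 CPM on days 7, 10 and 13 in UV cultures and 0.598 ± 0.246, 4.50 ± 0.599 and 14.0 ± 2.83 CPM in control cultures (SD, n = 3 each). G18662 had 0, 4 and 9 UMIs in UV day 7 against 4, 2 and 1 in control day 7, and reached 4.31 ± 1.03 CPM in UV day 13 against 4.88 ± 1.14 CPM in control day 13 (SD, n = 3 each).

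Between the arms on day 10, G8314 was the single gene called higher by edgeR. None of the 41 genes was lower in UV day 10 by edgeR or limma-voom, and at an unadjusted p under 0.05 edgeR had 0 lower and limma-voom 2. DESeq2 gave an adjusted p for 1 of the 41 genes and called 0. The median gene had 9 UMIs over 3 libraries in each arm, and with only the 6 libraries of day 10 the low-count filter kept 0 of the 41 genes, so the lack of calls does not show that the arms were alike. Every UV library was above every control library for 1 gene and below for 4 genes, against 7.41% and 7.96% of all genes tested. The median direction depended on the measure. The log2 ratio of mean CPM had a median of -0.22, with the UV mean higher for 15 genes and lower for 26, while the fitted log2 fold change had a median of 0.09, with 21 positive. The fitted median was -0.32 with only the shallow replicates and 0.15 with only replicate 3. With 1 library left out it was negative without UV day 10 replicate 3 (-0.24), without control day 10 replicate 2 (-0.013) and without control day 10 replicate 3 (-0.36).

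On day 13 the UV level was within 2-fold of the control level for 35 of the 41 genes. The median ratio was 0.854 (quartiles 0.716 and 1.02), and the UV mean was higher for 11 genes and lower for 30. The median log2 ratio was -0.22, against a median near 0 over all genes tested. It was -0.028 without control day 13 replicate 3, so most of that difference rested on 1 library. Control replicate 3 had the highest CPM of its group for 21 of the 41 genes, against 35.4% of all genes tested. The 41 genes were chosen for high counts in control day 13, so the choice can raise the control side of this ratio, and no test is given.

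Every UV day 13 library was above every control day 13 library for G8314 and G19593, and below for G17529, G17840, G10662, G3750, G28765 and G29673. The same patterns were seen in 9.57% and 7.96% of all genes tested. G3750 shares its second identifier with another gene. Whether reads are divided between their entries was not tested. G19593 differed little, with 5.22, 6.11 and 5.37 CPM in UV cultures against 4.71, 4.92 and 4.70 CPM in control cultures. G32043 had the next highest ratio to G8314, at 1.89, but its groups overlapped, with 4.67, 8.80 and 3.90 CPM in UV cultures against 2.44, 2.20 and 4.56 CPM in control cultures.

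**Figure D5:**
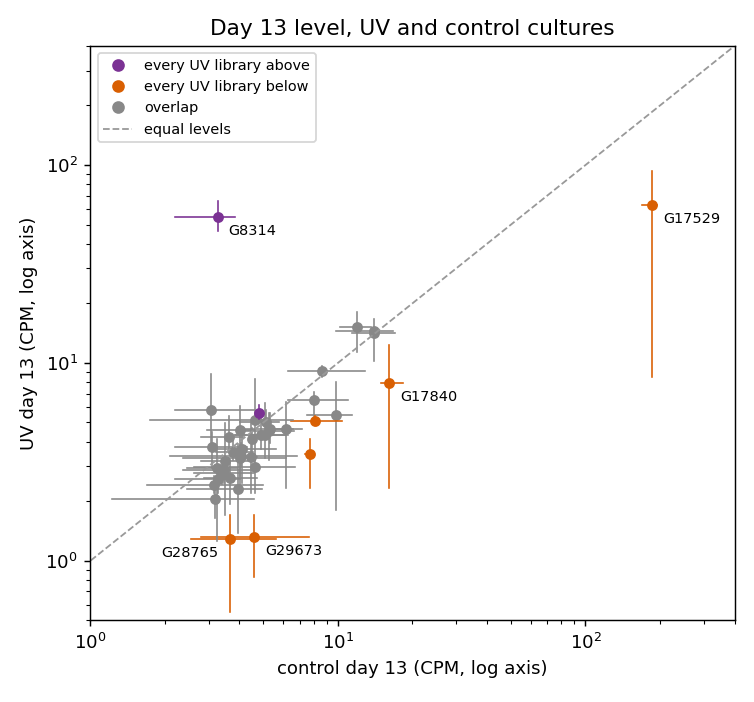
Mean day 13 level of the 41 genes in UV (vertical) and control cultures (horizontal), in CPM on log axes, with lines from the lowest to the highest library and the diagonal of equal levels. Purple marks genes with every UV library above every control library and orange those with every UV library below. Most genes lie near the diagonal, with control levels of 3 to 16 CPM. G8314 lies 16.7-fold above it, and G17529 lies below it.

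The lowest ratio of mean levels, UV to control, on day 13 was that of G29673, at 0.288. It stood at 0.825, 1.44 and 1.71 CPM in UV cultures against 2.79, 7.63 and 3.35 CPM in control cultures, and control replicate 2 was well above the others. The pooled ratio was 0.300, and 0.435 without that library. G28765, named after its values were seen, had a like pattern, with 0.550, 1.62 and 1.71 CPM in UV against 2.79, 5.60 and 2.55 CPM in control cultures. Its pooled ratio was 0.380, and 0.509 without control replicate 2.

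For some of the 41 genes the control day 13 count lay largely in 1 library. In 14 genes a single library held over 50% of the control day 13 UMIs, and the highest shares were those of G31948, at 62.2%, and G13208. The same count over all genes tested was not made. Depth enters these raw counts, since control replicate 3 was the deepest of its group, with 6426803 UMIs. It held the most UMIs for 32 of the 41 genes and the highest CPM for 21. G31948 had 11, 22 and 13 UMIs in UV day 13 against 12, 19 and 51 in control day 13. G13208 had 8, 13 and 11 UMIs in UV day 13 against 16, 10 and 37 in control day 13. In both genes the high library was control replicate 3, while the UV libraries were even. Their UV levels were 3.38 ± 0.498 and 2.41 ± 0.249 CPM, against 4.05 ± 2.48 and 3.15 ± 1.66 CPM in control cultures (SD, n = 3 each).

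In the authors' deposited table, all 41 genes were higher in UV day 13 than in UV day 7 at an adjusted p under 0.05. That table gave 9 of them as higher in UV day 10 than in UV day 7, 24 as lower in UV day 10 than in UV day 13, and 1, G8314, as higher in UV day 10 than in control day 10.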

How the data were processed

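MARS-seq2.0 libraries were made from DNase-treated total RNA, per the labels' protocols. The authors deposited UMI counts and read counts per gene as whole numbers, not normalized. They also deposited a DESeq2 table, of which log2 fold changes (first-named group over second) and adjusted p-values of 4 comparisons were used, per the file headers. For aligner, build and annotation, the entry is: not given in the sources used here. In all, 0 other per-sample columns were used.

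UMI counts were tested with edgeR 4.0.16 (R 4.3.3): TMM, quasi-likelihood F-test (two-sided), 1 mean per group over all 18 libraries, filterByExpr (minimum count 10, minimum total 15; 18196 genes), Benjamini-Hochberg over all genes, threshold 0.05. Alternatives used DESeq2 1.42.0, limma-voom 3.58.1, other scalings, read counts and left-out libraries. SE is the log2 fold change over the root of F. The fits were tested on simulated data. CPM ratios on the log2 scale used a pseudocount of 0.1. Pooled UMI ratios carry exact 95% binomial intervals, and a group at 0 was set to 3 UMIs. UMI totals per library were 1060640 to 9216603.

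The genes and lists were chosen with earlier results of these data known. Named genes are those with the highest control day 13 level, the highest and lowest day 10 share, the largest called changes without overlap in each comparison, the highest and lowest UV ratio on day 13, the most UMIs in 1 library and the most UMIs in UV day 7. Planned grouping by function was not done, since identifiers carry no descriptions.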

Additional observations from a re-analysis of the deposited data

How the results depend on the processing

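The number of genes chosen was 18 with at most 5 UMIs on day 7, 12 with at least 100 UMIs on day 13, and 27 to 57 when 1 control library was left out with the limit scaled to the rest; the 27 came without control day 13 replicate 3. Scaling counts to equal library size gave 31 genes, 22 of them among the 41, and read counts gave 42, with 30. In UV cultures the genes called higher on day 13 than on day 7 numbered 36 to 41 with 1 library left out, those higher on day 10 than on day 7 numbered 6 to 10, and those higher on day 13 than on day 10 numbered 22 to 30. With only the libraries of the 2 groups the filter kept fewer of the 41 genes. Calls were 33 of 33 tested for day 13 against day 7 and 1 of 1 for day 10 against day 7. For day 13 against day 10 they were 21 of 23, and none could be tested between arms on day 10. With only day 10 replicate 3, 21 were called for day 13 against day 10. The call between arms on day 10 was 0 with DESeq2, where 1 of the 41 genes had an adjusted p, 0 with only day 10 replicates 1 and 2, and 0 to 1 with 1 library left out. No gene of the 41 was called lower between the arms on day 10 or after day 10 in UV cultures under any setting run.

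The median day 10 share in control cultures was 15.8% with library totals, 19.2% with only day 10 replicates 1 and 2, 16.6% with only replicate 3 and 16.7% to 20.3% with 1 library left out. That of UV cultures was 19.6% to 22.3% with 1 library left out. The median log2 ratio of UV to control on day 13 was -0.36 to -0.028 with 1 library left out. With library totals the all-gene median log2 change was 0.32 for UV day 13 over UV day 7, 0.14 for UV day 10 over UV day 7 and 0.16 for UV day 13 over UV day 10, against 0.05, 0.03 and 0.00 with TMM. Library totals gave 41, 10 and 36 higher genes for day 13 over 7, day 10 over 7 and day 13 over 10.

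Replicate numbers showed little pairing of the libraries: deviations of same-numbered libraries correlated at -0.02 to 0.05, apart from 1 value. That was 0.23, for replicate 3 between the arms on day 10, where replicates of the same number also had similar UMIs per read in both arms. With a replicate block 41, 8, 31 and 1 genes were called in the same order and then between the arms on day 10. The cause of these changes was not tested. Depth limits the values of day 7 and day 10, where the median gene had 6 to 9 UMIs over 3 libraries.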

Other observations

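The files give a second identifier for each gene that could be tested, except for entries marked NA, whose meaning the files do not state. Of the 41 genes, 9 were marked NA (22.0%), against 3.78% of all genes tested and 5.95% of the 5920 genes tested within the same range of control day 13 CPM, G17529 left aside. G17529, G17840 and G19111, which had the 3 highest control day 13 counts of the 41 genes, were among the 9. No test of this difference was made.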
